A study of Homo sapiens with 4 samples.

Results

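The genes that build cholesterol and fatty acids were examined on arrays of SAS cells, a human tongue squamous carcinoma line, with and without C6orf141 overexpression. The list held 31 genes of the mevalonate pathway, the sterol steps after it, the control of these steps by SREBP and the synthesis and desaturation of fatty acids. A gene was taken where an array row carried its symbol and no other, which was so for 29 of the 31 genes, among 33458 genes in all. FADS1 shared its row with a microRNA, and neither it nor FDFT1 was analysed here.

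RNA was measured on 4 Clariom D arrays, which give 1 log2 signal per transcript cluster, with 2 arrays for C6orf141 overexpression and 2 for scrambled control. Overexpression cells carried full-length C6orf141 in the pLVX-IRES-Neo vector, were transfected for 48 h and were then kept in 1200 μg/mL G418 for 14 days as a stable line. The labels name no vector for the control cells and do not say whether the line is a pool or a clone. Whether control cells were kept in G418 is not given, so selection cannot be told apart from overexpression in any comparison here. The methods give a serum-containing medium for the cell lines and name no other, so lipids of serum would have been present in all cultures. The labels do not say whether the replicates were grown as separate cultures, and a p-value here therefore reflects array-to-array spread that could be technical. C6orf141 itself had log2 signals of 11.36 and 12.04 on the overexpression arrays, against 8.57 and 7.92 on the control arrays. Its log2 fold change was 3.46 (standard error 0.32), with an adjusted p of 0.214 from limma. Of 9 listed markers of squamous or general epithelium, 6 were measured (KRT5, KRT14, SFN, CDH1, EPCAM and DSG3). All 6 lay above the background level, but KRT14, with a mean of 7.29, lay below the 95th percentile of negative control rows. KRT6A, KRT17 and TP63 had no row of their own. Of other markers, 0 of 3 adipocyte, 0 of 3 hepatocyte, 0 of 3 endothelial, 1 of 3 leukocyte and 2 of 5 fibroblast markers lay above the background level. The background level, 5.81 on the log2 scale, was the 95th percentile of the mean signals of 400 olfactory receptor genes. Of genes above it, 6.97% differed by more than 0.5 within the overexpression pair and 22.4% within the control pair. The part of this spread in the results was not tested beyond leaving out each array.

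Cells make cholesterol from acetyl-CoA through mevalonate, isoprenoid diphosphates, squalene and lanosterol. When membranes of the endoplasmic reticulum run short of sterol, SCAP carries the SREBP transcription factors to the Golgi, where they are cut and set free to switch on the genes of the pathway. INSIG proteins hold SCAP back when sterol is plentiful. SREBF2 encodes the factor that acts mainly on cholesterol genes and SREBF1 the factor that acts mainly on fatty acid genes, so the genes of the list often move together when sterol supply changes. In carcinoma cells the pathway feeds membrane growth.

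SREBP binds the sterol response element, usually next to a CCAAT box bound by NF-Y and a GC box bound by SP1. RefSeq promoters (GRCh38.p14, from 250 bases before to 50 bases after the start) were at hand for 26 of the 29 genes. The bases before the start are shown for the regulator gene SREBF2, the only one of the 26 with the sterol response element searched, for MVD, which had the largest difference between the groups, and for IDI1, which had the most negative one. Capitals mark the sterol response element TCACNCCAC and CCAAT boxes, each read on either strand, so that ATTGG is a CCAAT box of the other strand. The 2 motifs do not overlap in these stretches.
SREBF2, chr22:41832855-41833104, plus strand: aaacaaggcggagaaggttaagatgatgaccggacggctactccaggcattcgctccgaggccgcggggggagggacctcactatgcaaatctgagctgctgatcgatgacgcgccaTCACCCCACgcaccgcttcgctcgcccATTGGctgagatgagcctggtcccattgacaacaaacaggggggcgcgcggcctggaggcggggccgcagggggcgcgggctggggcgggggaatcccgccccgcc
MVD, chr16:88663092-88663341, minus strand: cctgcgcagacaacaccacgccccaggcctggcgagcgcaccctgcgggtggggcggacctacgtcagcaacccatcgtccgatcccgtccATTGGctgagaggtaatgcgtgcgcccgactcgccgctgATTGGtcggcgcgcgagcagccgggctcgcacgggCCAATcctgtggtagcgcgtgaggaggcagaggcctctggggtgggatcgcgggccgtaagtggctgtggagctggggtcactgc
IDI1, chr10:1056705-1056954, minus strand: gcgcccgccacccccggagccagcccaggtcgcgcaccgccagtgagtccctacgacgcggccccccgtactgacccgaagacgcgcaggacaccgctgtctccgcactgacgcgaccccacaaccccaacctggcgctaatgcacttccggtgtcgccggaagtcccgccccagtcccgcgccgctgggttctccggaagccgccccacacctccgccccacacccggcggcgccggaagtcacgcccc

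In SREBF2 the sterol response element lay 133 to 125 bases before the start and its CCAAT box 106 to 102 bases before it. MVD had 3 CCAAT boxes and IDI1 had none in this stretch. Over the full promoter windows, a CCAAT box was present in 17 of the 26 genes or 65.4%, against 34.6% of all 35116 promoters and 37.4% of the promoters of genes above the background level. GGGCGG, the GC box, was present on either strand in 24 of the 26 or 92.3%, against 45.0% of all promoters and 68.2% of those of genes above the background level. The sterol response element was found in 1 of the 26 or 3.85%, against 1.13% of all promoters. A match describes these letters only, and a gene without one may hold other forms of the element or hold it elsewhere.

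All 29 genes had a mean signal above the background level, and 27 also lay above 7.72, a limit under which 95% of the negative control rows fell on every array. PMVK and TM7SF2 were the 2 within the range of those rows. The median of the 29 mean log2 signals was 12.88, against 9.38 for all genes above the background level. Signals of different transcript clusters depend on their probes, so the genes are not ranked by level.

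**Figure D1:**
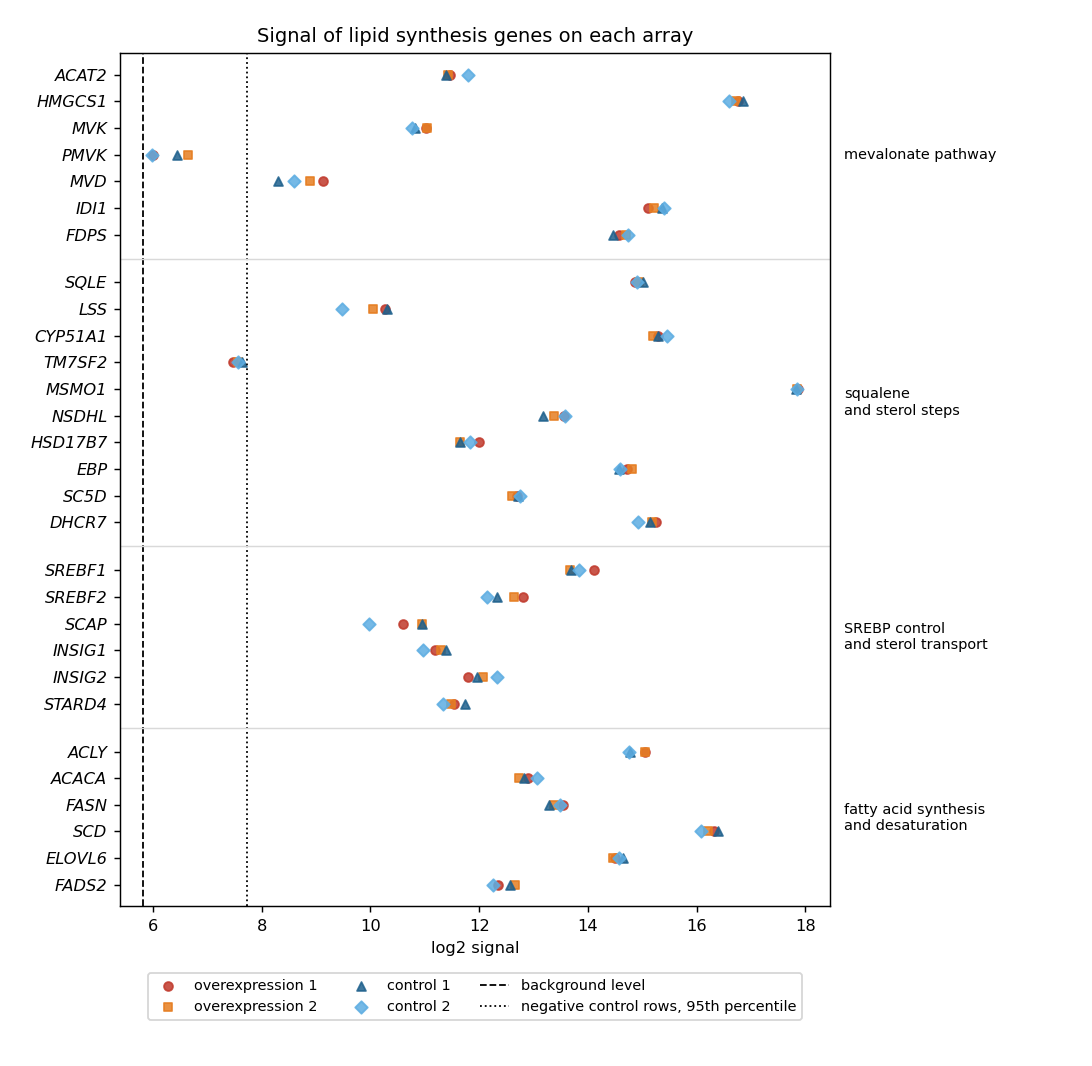
Log2 signal of the 29 lipid synthesis genes on overexpression arrays 1 and 2 and control arrays 1 and 2, grouped by role, with the background level of 5.81 (dashed) and the limit of 7.72 from negative control rows (dotted). The 4 arrays of a gene lie close together compared with the range over genes, and only PMVK and TM7SF2 lie left of the dotted line.

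The question was whether C6orf141 overexpression moved these genes. Of the 29 genes, 1 rose and 0 fell at an unadjusted p below 0.05 in limma, and 0 passed after Benjamini-Hochberg adjustment. In the same fit 2.11% of all genes passed the unadjusted threshold in either direction, 0.898% of those above the background level, and 0% passed after adjustment. In the higher direction alone it was 1.04% of all genes and 0.415% of genes past the background level, and in the lower direction 1.07% and 0.483%. The share of the list, 3.45%, rests on 1 gene. Without that gene it would fall below these unadjusted shares, so the count is not a result about the list. A test on each gene's own variance, with none shared between rows, called MVK and ACLY, or 6.90% of the list. Over all genes it called 4.08%, and over genes past the background level 3.84%. The median log2 fold change of the 29 genes was 0.064, against −0.0038 for all genes above the background level. Positive differences were found for 19 of the 29 genes, or 65.5%, against 49.9% of all genes and 49.3% of genes above the background level. The median of their absolute log2 fold changes was 0.11, against 0.13 for genes above the background level, and 21 of the 29 genes differed by less than 0.2.

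**Figure D2:**
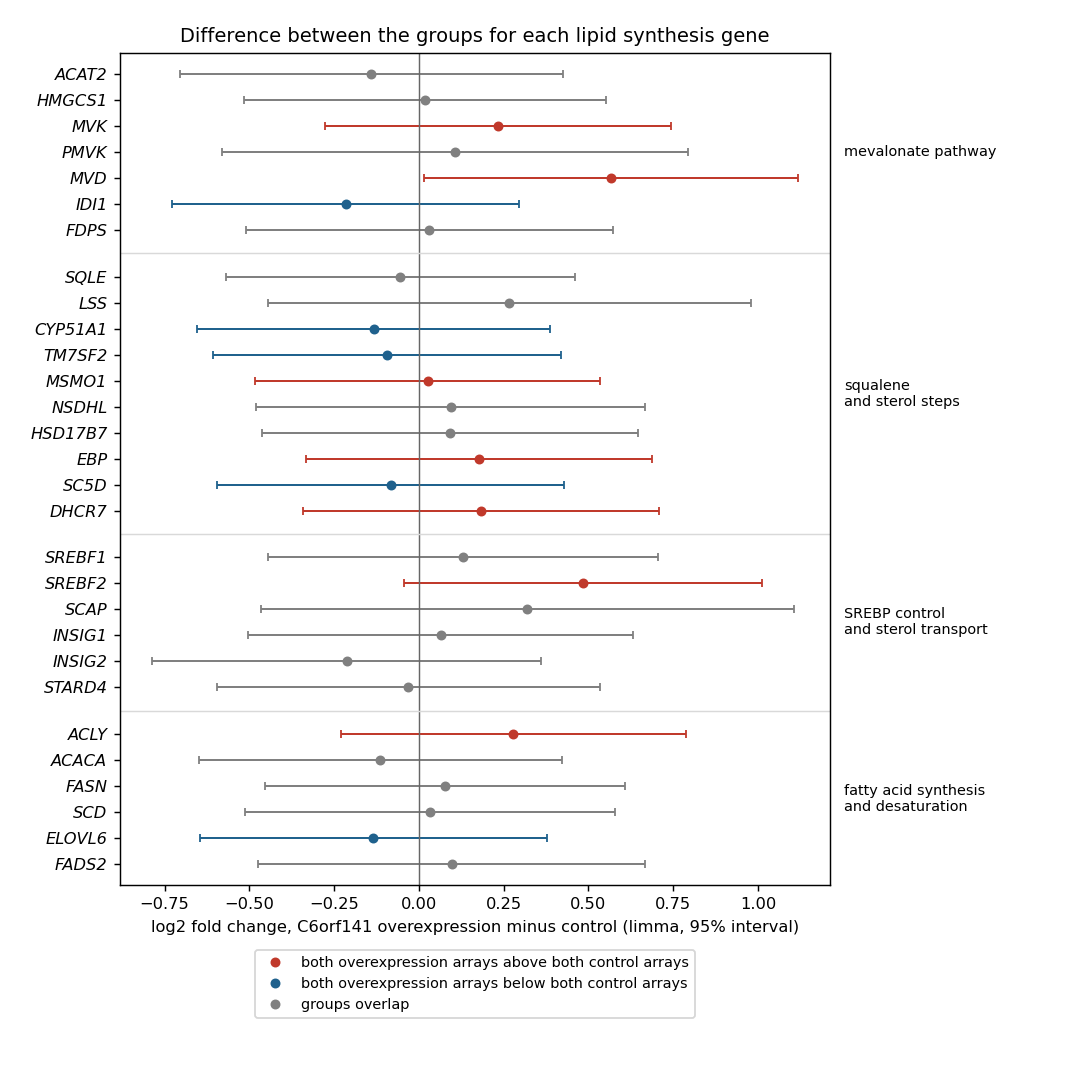
Log2 fold change of each lipid synthesis gene, C6orf141 overexpression minus control, with its 95% interval from limma (n = 2 arrays a group). MVD, at 0.57, is the only gene whose interval does not reach 0, and the intervals of the other 28 genes include 0.

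The mevalonate pathway turns acetyl-CoA into the building units of all isoprenoids. MVD, the decarboxylase that makes isopentenyl diphosphate, had log2 signals of 9.13 and 8.90 on the overexpression arrays, against 8.31 and 8.59 on the control arrays. Both overexpression arrays lay above both control arrays, with a gap of 0.31 between the groups. The log2 fold change was 0.57 (standard error 0.24, 95% interval 0.015 to 1.12), or 1.48-fold, with an unadjusted p of 0.0455 and an adjusted p of 1.00 from limma. The call was lost without either overexpression array or without control replicate 1. The log2 fold change then lay between 0.43 and 0.68, so it stayed positive.

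MVK, the first kinase of the pathway, had 11.02 and 11.04 on the overexpression arrays, against 10.82 and 10.76 on the control arrays. The groups did not overlap and their difference of 0.23 (standard error 0.22) was larger than the difference between arrays of either group, but its unadjusted p was 0.321 in limma. PMVK, the kinase between MVK and MVD, lay within the range of the negative control rows and had 6.003 and 6.65 on the overexpression arrays, against 6.45 and 5.99 on the control arrays. Its arrays interleaved and its difference of 0.64 between the overexpression arrays was the largest in that group. IDI1, the isomerase that follows MVD, had 15.11 and 15.21 on the overexpression arrays, against 15.36 and 15.40 on the control arrays. Here both overexpression arrays lay below both control arrays, with a log2 fold change of −0.22 (standard error 0.22, unadjusted p = 0.357 in limma), the opposite sign to MVD.

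The other 3 genes of this group overlapped between the groups. HMGCS1, which condenses acetyl-CoA units to HMG-CoA and is a well known SREBP target, averaged 16.74 ± 0.027 under overexpression and 16.72 ± 0.19 in control cells (SD, n = 2 each). FDPS, which joins the units to farnesyl diphosphate, averaged 14.63 ± 0.091 and 14.60 ± 0.21 in these groups. ACAT2, the cytosolic thiolase of the first step, averaged 11.45 ± 0.031 under overexpression and 11.59 ± 0.29 in control cells, where control array 2 had 11.80 and control array 1 had 11.38. For HMGCS1 the 95% interval of the log2 fold change ran between −0.52 and 0.55. The 7 genes of the mevalonate pathway had a median of 0.031, 5 positive and 2 negative differences, and 1 passed the unadjusted threshold. The median was −0.034 without overexpression replicate 2 and 0.15 without control replicate 1.

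The squalene and sterol steps close the ring system and trim lanosterol to cholesterol. Of the 10 genes measured, 0 passed an unadjusted p below 0.05 in limma, with a median log2 fold change of 0.059 and values between −0.13 and 0.27. The median lay between −0.0079, without control replicate 2, and 0.080, without overexpression replicate 2, and was also below 0 without overexpression replicate 1 or control replicate 1. LSS, the cyclase that makes lanosterol, had 10.26 and 10.04 on the overexpression arrays, against 10.30 and 9.48 on the control arrays. Control array 2 alone was low, so that the 2 control arrays differed by 0.82, more than the log2 fold change of 0.27. Without control replicate 1 the log2 fold change of LSS was 0.68 (unadjusted p = 0.0446 in limma), and without control replicate 2 it was −0.14.

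SQLE, the epoxidase that is a rate-limiting step of the later pathway, averaged 14.91 ± 0.054 under overexpression and 14.96 ± 0.075 in control cells (SD, n = 2 each), a log2 fold change of −0.055. MSMO1, the methyl sterol oxidase, was the most even gene of the list, with 17.86 and 17.85 on the overexpression arrays, against 17.82 and 17.84 on the control arrays. Its groups did not overlap, yet the difference was only 0.026. DHCR7, the last enzyme of one branch to cholesterol, averaged 15.21 ± 0.043 under overexpression and 15.03 ± 0.15 in control cells, and EBP, the sterol isomerase, averaged 14.76 ± 0.062 and 14.58 ± 0.0081 in these groups. Both had higher signals on the overexpression arrays without overlap, by 0.18 each.

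Both overexpression arrays lay below both control arrays for 15.1% of all genes and 15% of genes above the background level. Within this group 3 of the 10 genes lay lower in this way. These were CYP51A1, the lanosterol demethylase, with a log2 fold change of −0.13, TM7SF2, a sterol reductase, with −0.093, and SC5D, a sterol desaturase, with −0.084. Their gaps between the groups were 0.0008, 0.0065 and 0.0099. NSDHL and HSD17B7, which take part in the removal of methyl groups from the ring, overlapped between the groups, with log2 fold changes of 0.093 and 0.092.

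The genes of SREBP control had the highest median standard error of the role groups, 0.25. SREBF2 had 12.80 and 12.65 on the overexpression arrays, against 12.33 and 12.14 on the control arrays. The groups did not overlap, with a gap of 0.31 as for MVD, and the log2 fold change was 0.48 (standard error 0.23, 95% interval −0.045 to 1.01), or 1.40-fold. Its unadjusted p of 0.0678 in limma did not pass. With trend and robust settings of limma it passed at an unadjusted p of 0.0202, and the adjusted p was 1.00 in both fits. SREBF1 had overlapping groups, with a mean of 13.89 ± 0.31 under overexpression and 13.76 ± 0.11 in control cells (SD, n = 2 each) and a log2 fold change of 0.13.

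SCAP, the escort of SREBP, had 10.61 and 10.95 on the overexpression arrays, against 10.94 and 9.98 on the control arrays. Control array 2 was again the low one, and the difference of 0.96 between the control arrays was the largest within a group of all 29 genes. The log2 fold change of SCAP was 0.32 with all arrays, 0.80 without control replicate 1 (unadjusted p = 0.0289 in limma) and −0.16 without control replicate 2. A second row of SCAP, dimmer and not used, had a log2 fold change of 0.034.

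INSIG1 and INSIG2 encode paralogous anchors of SCAP in the endoplasmic reticulum, and INSIG1 is itself a target of SREBP. INSIG1 averaged 11.24 ± 0.079 under overexpression and 11.18 ± 0.30 in control cells (SD, n = 2 each), and INSIG2 averaged 11.93 ± 0.19 and 12.14 ± 0.26 in these groups. Their log2 fold changes were 0.064 and −0.21, and both overlapped between the groups. STARD4, a carrier of cholesterol between membranes and a further SREBP target, had a log2 fold change of −0.031. The 6 genes of this group had a median of 0.097, which was 0.23 without control replicate 1 and −0.090 without control replicate 2.

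Genes of fatty acid synthesis and desaturation had log2 fold changes between −0.14 and 0.28. ACLY, which supplies cytosolic acetyl-CoA from citrate, had 15.05 and 15.04 on the overexpression arrays, against 14.77 and 14.76 on the control arrays. The arrays of a group differed by 0.0041 under overexpression and by 0.0072 in control cells, whereas the groups differed by 0.28, or 1.21-fold. The standard error in limma, which borrows the spread of all rows, was nevertheless 0.22, and the unadjusted p was 0.241. Leaving out any array kept the log2 fold change of ACLY between 0.275 and 0.282.

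ACACA, the carboxylase that commits acetyl-CoA to fatty acids, averaged 12.82 ± 0.12 under overexpression and 12.94 ± 0.17 in control cells (SD, n = 2 each). FASN, the fatty acid synthase, averaged 13.46 ± 0.12 and 13.38 ± 0.14 in these groups, and SCD, the desaturase of saturated fatty acids, averaged 16.26 ± 0.088 and 16.23 ± 0.22. All 3 overlapped between the groups, as did FADS2, a desaturase of polyunsaturated fatty acids, with a log2 fold change of 0.097. ELOVL6, the elongase of palmitate, lay lower on both overexpression arrays, at 14.50 and 14.45, against 14.65 and 14.57 on the control arrays. The median of the 6 genes was 0.055, and 0 passed the unadjusted threshold in limma. It was −0.018 without overexpression replicate 1, −0.027 without control replicate 2 and 0.085 without control replicate 1.

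**Figure D3:**
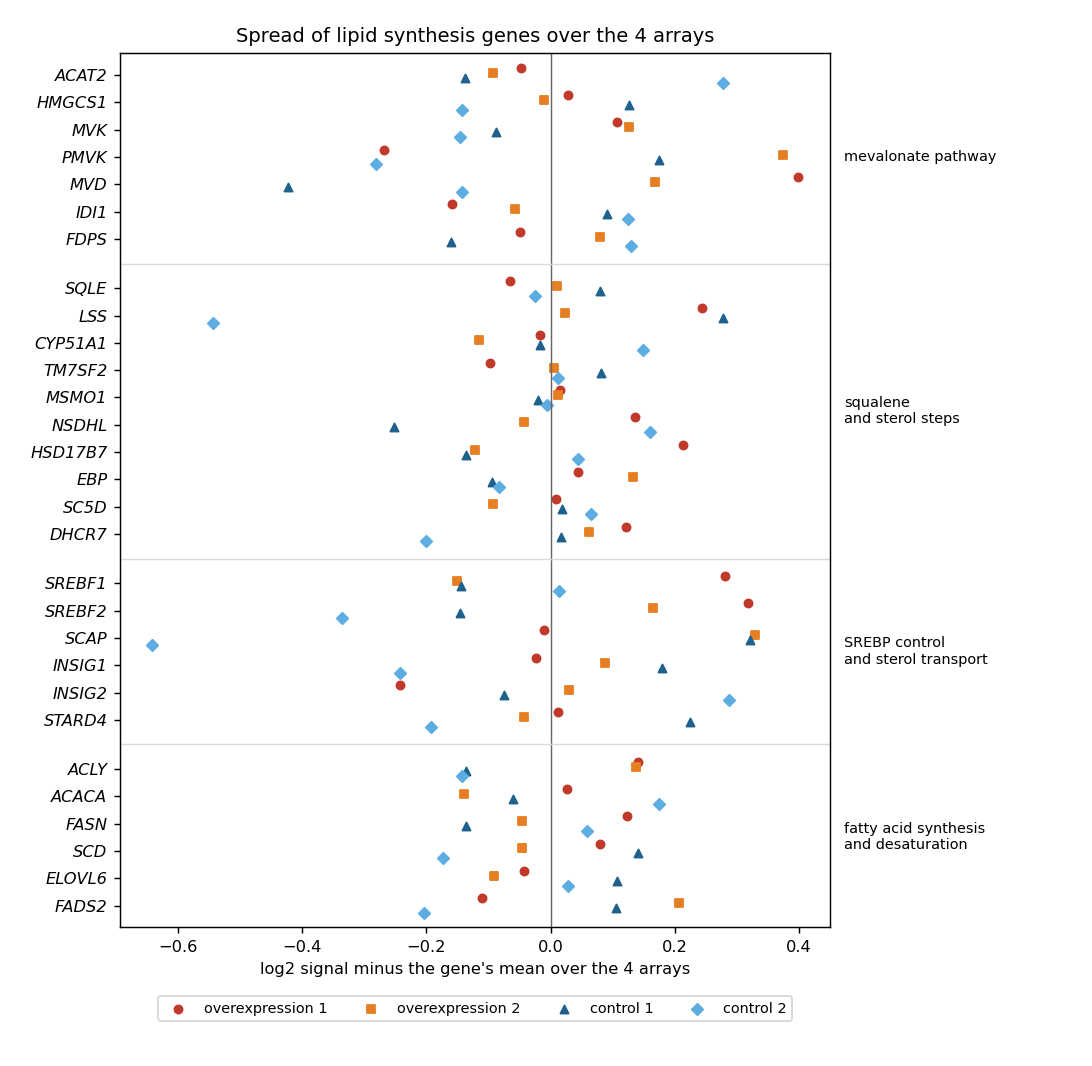
Log2 signal of each lipid synthesis gene on each of the 4 arrays minus that gene's mean over the arrays. Control array 2 holds the lowest or the highest value for 20 of the 29 genes, or 69.0%, against 64.6% of genes above the background level. LSS and SCAP lie farthest from the mean on it. MVD, SREBF2 and ACLY have both overexpression arrays to the right of both control arrays.

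The groups did not overlap for 12 of the 29 genes, or 41.4%, against 29.4% of all genes and 27.6% of genes above the background level. Of these, 7 were higher under overexpression (MVK, MVD, MSMO1, EBP, DHCR7, SREBF2 and ACLY) and 5 lower (IDI1, CYP51A1, TM7SF2, SC5D and ELOVL6), against 14.3% higher and 15.1% lower of all genes and 12.6% higher and 15% lower of genes above the background level. The difference between the groups was larger than the difference between the arrays of either group for 8 genes, which were MVK, MVD, IDI1, MSMO1, EBP, SREBF2, ACLY and ELOVL6. These are 27.6% of the list, beside 18.5% of all genes and 17.1% of genes past the background level by the same rule. With 2 arrays a group, an exact permutation test of a gene cannot go below a two-sided p of 0.333, so the p-values here come from limma, which shares the variance over rows.

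After these values were seen, the promoters were set beside the 12 genes. All 7 higher genes held a CCAAT box, against 2 of the 5 lower genes and 8 of 14 overlapping genes with a promoter in the table. Among genes above the background level the box was present in 39.9% of higher, 38.3% of lower and 36.9% of overlapping genes. The GC box was present in 7 of 7 higher, 5 of 5 lower and 12 of 14 overlapping genes of the list. Among genes above the background level it was present in 72.1%, 65.5% and 68.1% of these classes. The sterol response element was present in 1 of 7 higher, 0 of 5 lower and 0 of 14 overlapping genes of the list. Its shares among genes above the background level were 1.02%, 0.692% and 1.09%. The higher and lower classes rest only on groups that did not overlap, which held for 29.4% of all genes. Some gaps were very small, such as 0.0165 for MSMO1 and 0.0008 for CYP51A1. The comparison is a description of letters in a window after the fact, and no test was made of it.

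**Figure D4:**
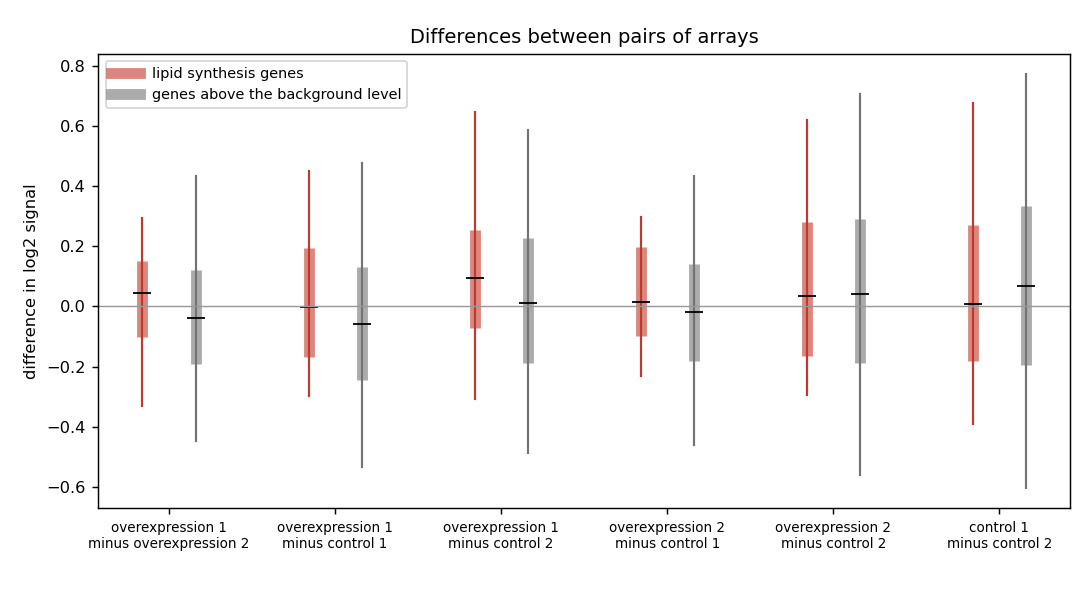
Difference in log2 signal between each pair of arrays for the 29 lipid synthesis genes (red) and the 16146 genes above the background level (grey), as median (dash), central 50% (bar) and central 90% (line). The control pair spreads more widely than the overexpression pair for both sets.

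The median absolute difference of the 29 genes within the overexpression pair was 0.11, against 0.16 for genes above the background level. Within the control pair it was 0.22, against 0.27. The control arrays differed more than the overexpression arrays for 21 of the 29 genes, which was also so for 66.3% of genes above the background level. Differences between groups depended on the array chosen, with a median absolute difference of 0.11 between overexpression array 2 and control array 1, and of 0.22 between overexpression array 2 and control array 2. Control array 2 had the lowest signal of the 4 arrays for 12 of the 29 genes and the highest for 8. It was the lowest or the highest for 64.6% of genes above the background level, so this was not particular to the list.

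Other genes of lipid metabolism were taken from 6 lists by function, of which 39 of 50 genes had a row of their own. Of these 39, 0 rose and 1 fell at an unadjusted p below 0.05 in limma, and 0 passed after adjustment, beside 1.04% higher and 1.07% lower of all genes. The gene that fell was PGGT1B, a subunit of the enzyme that attaches geranylgeranyl groups to proteins, with log2 signals of 8.19 and 8.18 on the overexpression arrays, against 8.89 and 8.58 on the control arrays. Its log2 fold change was −0.55 (standard error 0.23, 95% interval −1.09 to −0.010), with an unadjusted p of 0.0467 and an adjusted p of 1.00 from limma. The call was lost without either overexpression array or without control replicate 1, on centring each array on its median (unadjusted p = 0.0541), and with the test on each gene's own variance.

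By function, the median log2 fold change was −0.050 for 6 genes of the isoprenoid branch, 0.19 for 7 genes of sterol uptake, transport and efflux, 0.021 for 6 genes of ester and triglyceride storage, 0.011 for 8 genes of fatty acid activation and elongation, −0.045 for 6 genes of SREBP processing, sterol sensing and LXR, and 0.053 for 6 genes of fatty acid oxidation. In the transport list 6 of 7 differences were positive, with 0.36 for ABCA1, the cholesterol exporter, and 0.37 for STARD3, a late endosomal sterol carrier. In both the groups did not overlap, and neither passed in limma. The groups did not overlap for 10 of the 39 genes, or 25.6%, against 29.4% of all genes and 27.6% of genes above the background level. Of these 10, 7 were higher and 3 lower. The largest differences of the 39 lay outside the transport list, 0.47 for CPT2 and −0.57 for LPIN1, which lay below the background level. In the sterol sensing list 2 differences were positive and 4 negative. MBTPS1, the protease that makes the first cut in SREBP, had a log2 fold change of 0.20 (unadjusted p = 0.416 in limma). ERLIN2 had the most negative one of this list, −0.26.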

How the data were processed

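RNA of SAS cells was prepared with the WT PLUS reagent and hybridised on Clariom D arrays. The authors summarised the signals with Expression Console and deposited log2 values, 1 for each transcript cluster on each array, which were used without further normalization. The sources used here do not give the summary algorithm, its normalization, tool versions or genome build. Array controls, 2995 of 138745 rows, were left out. The annotation of the platform names 1 symbol for 36176 rows, of which 25516 matched RefSeq (GRCh38.p14) by gene number, and 623 outdated symbols were replaced through their synonyms. Where a gene had several rows, the row with the highest mean stood for it. Limma (version 3.58.1, R 4.3.3) was run with lmFit and eBayes on 135750 rows as a two-sided test, and p-values were adjusted by Benjamini-Hochberg over 33458 genes, with a threshold of 0.05. The steps were run on simulated data with known changes and independent noise of the variance fitted by limma. The simulated arrays did not differ in spread, so this checks the calculation only and not how these arrays behave. The number of arrays limits the precision. Named pseudogenes, 19 in all, exist for 5 of the 29 genes (IDI1, FDPS, CYP51A1, HSD17B7 and SCD), whose signals are uncertain because probes may be shared.

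The members and lists were chosen with earlier results of these data known. Values on every array are given for members past the unadjusted threshold, the 6 with the smallest p and the 3 with the largest difference within a group, and other lipid genes are named where they passed. Array values of ELOVL6 and MSMO1, and ABCA1, STARD3, CPT2, LPIN1, MBTPS1 and ERLIN2, were added after their values were seen. Alternatives changed the scaling (quantiles, or array medians), the variance model of limma (trend and robust), the rows (bright genes only, or a mean over rows), the test (equal-variance t statistic on each gene's own variance, as the methods name Partek but no test) or the arrays (each left out once, or paired by replicate number).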

Additional observations from a re-analysis of the deposited data

How the results depend on the processing

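No adjusted call for a lipid synthesis gene was gained under any alternative run. At the unadjusted threshold, the count of higher lipid synthesis genes, 1 as reported, was 2 with trend and robust settings (MVD and SREBF2), 2 with the test on each gene's own variance (MVK and ACLY), 0 with the replicate block and 0 to 2 when arrays were left out. The count of lower ones stayed at 0. Of other lipid genes, the own-variance test gave 1 higher, and 0 were lower on centring and with the replicate block. PGGT1B had an unadjusted p of 0.0691 in the own-variance test, where ACADM was the lower gene, and 0.0625 with the replicate block. Leaving out arrays gave 0 to 1 in each direction. MVD had an unadjusted p of 0.0894 with the test on each gene's own variance and 0.0629 with the replicate block, against 0.0322 to 0.0463 in the other settings with 4 arrays. Over all genes, the higher and lower counts were 348 and 358 as reported, 654 and 710 by that test, and 67 and 78 among genes above the background level. Leaving out arrays gave 209 to 925 higher and 244 to 668 lower genes, the most without control replicate 1. Trend and robust settings and the replicate block each gave 1 gene after adjustment, which was C6orf141 itself (adjusted p = 0.040 and 0.041 from limma). The differences within the 2 pairs, array 1 minus array 2, had r = −0.112 across all genes and −0.271 across genes above the background level. With 1 difference a group, which array-wide shifts can set, r cannot decide whether arrays of the same number were paired. The labels do not say that the numbers pair arrays, so they were not taken as pairs. The cause of these shifts was not tested.

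The median of the 29 genes ranged between −0.032 and 0.052 without 1 array. No sign of a lipid synthesis gene turned in the settings with 4 arrays. When 1 array was left out, the sign turned for 15 of the 29 genes, none of them called with all arrays. Their log2 fold changes then ranged from −0.35 to 0.068 for ACAT2, −0.12 to 0.15 for HMGCS1, −0.22 to 0.43 for PMVK, −0.11 to 0.18 for FDPS, −0.14 to 0.68 for LSS, −0.11 to 0.30 for NSDHL, −0.076 to 0.26 for HSD17B7, −0.085 to 0.35 for SREBF1, −0.16 to 0.80 for SCAP, −0.15 to 0.27 for INSIG1, −0.24 to 0.18 for STARD4, −0.23 to 0.0039 for ACACA, −0.021 to 0.18 for FASN, −0.12 to 0.19 for SCD and −0.061 to 0.26 for FADS2. These fits take the spread of the remaining single array to equal that of the intact pair.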
